A study of Mus musculus with 12 samples.

Results

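The 10 genes described here encode enzymes that build triglyceride and its glycerolipid precursors. They were listed by name for their place in this pathway: Gpam, Gpat3, Gpat4, Agpat2, Agpat3, Lpin1, Lpin2, Dgat1, Dgat2 and Mogat2. All 10 were found among the 16411 genes of the deposited count table, and 9 of the 10 were among the 13191 genes with enough counts to be tested. The study sequenced RNA of 6 tumors and 6 benign tissues from the mammary glands of female mice on an FVB background. All 12 samples were from heterozygous MMTV/neu ndl-YD5 transgenics, in which the MMTV promoter drives an activated HER2 receptor in the mammary epithelium, so the benign tissue carried the transgene as well. Benign tissue was mammary tissue with no visible tumor. Per the study's methods it was taken far from the tumors, such as from the inguinal region where tumors were cervical, so its site could vary. Tumors and benign samples for RNA came from different mice whose ages at sampling are not in the labels. Tumors and benign samples were both bulk tissue, and the mammary gland of a mouse lies in a fat pad.

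Triglyceride is made by adding fatty acyl chains to a glycerol backbone. Glycerol-3-phosphate acyltransferases (GPATs) add the first chain, acylglycerol-phosphate acyltransferases (AGPATs) add the next to give phosphatidate, lipins remove the phosphate to give diacylglycerol, and diacylglycerol acyltransferases (DGATs) add the last chain. Phosphatidate and diacylglycerol also feed the synthesis of membrane phospholipids, and the whole route to triglyceride is especially active in adipocytes and in the lactating mammary gland.

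Triglyceride synthesis genes were lower in tumors than in benign tissue at every step of the route, and the sizes of the falls differed widely between enzymes of the same step. Of the 9 genes tested, 8 were lower in tumors, 0 were higher and 1, Lpin2, was not called, at an adjusted p-value under 0.1 by edgeR's quasi-likelihood test with Benjamini-Hochberg adjustment over all genes tested. Over all 13191 genes, 34.8% were lower and 28.2% were higher. The median log2 fold change (tumor minus benign) of the 9 genes was -2.20, beside -0.06 over all genes tested. For 7 of the 9, all 6 tumors lay below all 6 benign samples, as did 21.2% of all genes tested. Levels below are in CPM, the counts of a gene relative to its library's size after TMM normalization, with 6 samples per group throughout.

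**Figure D1:**
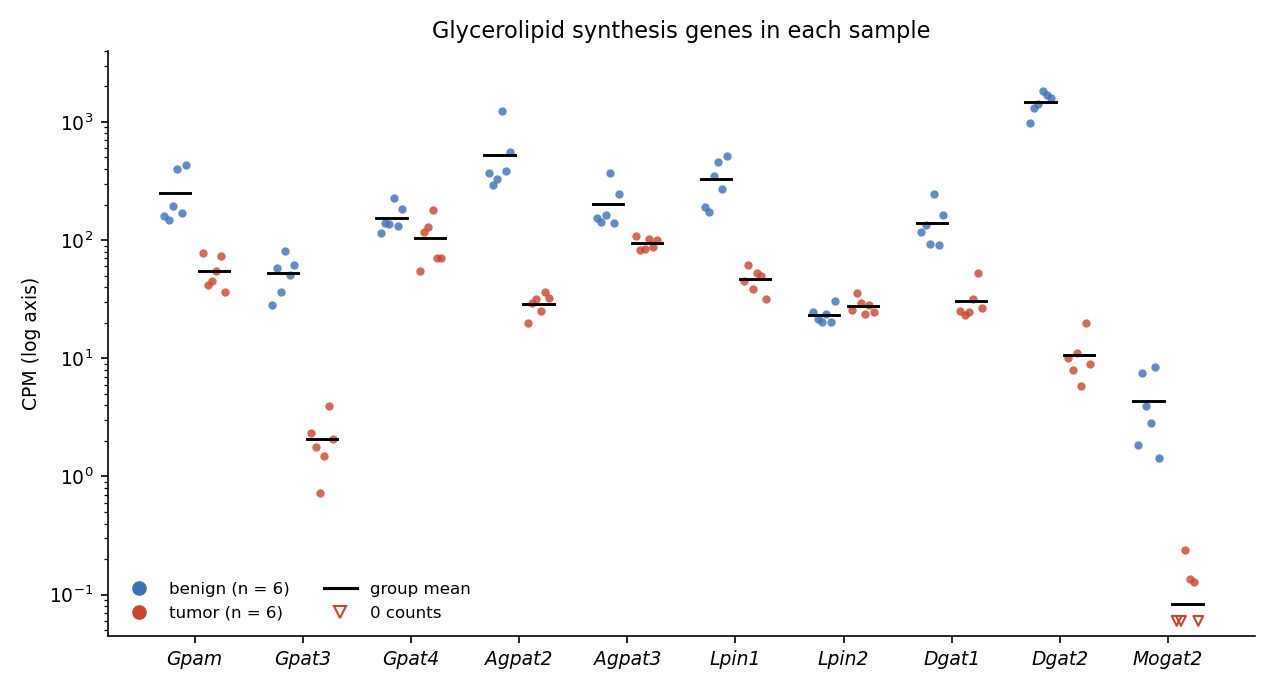
CPM on a log axis of the 10 glycerolipid synthesis genes, with a point for each of 6 benign samples (blue) and 6 tumors (red) and a bar for each group mean, and with open triangles at the foot for libraries with 0 counts. The groups are clear of each other except for Gpat4 and Lpin2, and the gap is widest for Dgat2, whose means were 1461 and 10.6 CPM.

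Markers of white adipocytes were lower in tumors as well. All 12 of 12 passed the test, with a median log2 fold change of -7.89, and their summed level ranged from 22240 to 45540 CPM in benign tissue and from 238 to 491 CPM in tumors. Pnpla2, the triglyceride lipase that fell least of the 12 (log2 fold change -3.20), made up 42.9% to 73.9% of the sum in tumors and 3.85% to 6.92% in benign tissue. The other 11 summed to 20890 to 42390 CPM in benign tissue and 62.3 to 280 CPM in tumors. None of the 12 was at 0 in every tumor, and 4 of them, Adipoq, Fabp4, Cd36 and Lipe, were named by the study as reduced in these data. In bulk samples, fewer adipocytes and less RNA per adipocyte cannot be told apart. Summed endothelial markers (525.9 to 1023 CPM in benign tissue, 76.7 to 92.0 in tumors) and fibroblast markers (2509 to 5161 CPM, then 219 to 452) were lower too, with 6 of 6 lower in each list. Macrophage markers summed to 401 to 956 CPM in benign tissue and 215 to 485 CPM in tumors, with 4 of 6 lower. Mammary epithelial markers summed to 1051 to 2769 CPM in benign tissue and 2576 to 4184 CPM in tumors, with 5 of 10 higher (Epcam by 2.24 on the log2 scale) and 3 of 10 lower (the basal keratins Krt5 and Krt14, and Krt19).

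The benign samples also differed among themselves. Skeletal muscle markers summed to 56640, 36190 and 92950 CPM in benign samples 3, 4 and 6, to between 18.2 and 376 CPM in the other benign samples, and to between 5.82 and 157 CPM in tumors. Brown adipocyte markers summed to 3484 CPM in benign sample 4 and 1156 CPM in benign sample 6, against 53.7 to 306 CPM in the other benign samples and 30.6 to 81.6 CPM in tumors. Of the 6 tested, 4 were lower in tumors, 1 was not called and 1, Ppargc1a, was higher (log2 fold change 1.46, adjusted p = 0.019 by edgeR). Ppargc1a gave much of the sum in tumors, as in tumor 1 (62.7 of 76.4 CPM). In benign sample 6 Cidea stood at 315, Cpt1b at 312, Cox8b at 269 and Ucp1 at 217 CPM. Benign sample 4 or 6 had the highest level among benign samples for 9 of the 10 genes. The log2 fold changes of the tested genes among the 10, the numbers of genes called and the ratios between enzymes of a step were therefore also computed without samples 4 and 6 and without samples 3, 4 and 6. Levels per kilobase, sums by step, ratios to adipocyte markers and values of single other pathway genes are given with all samples only.

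The first step is served by 3 of the genes. Gpam, the GPAT of the outer mitochondrial membrane, lies at chr19:55067268-55127238 on the minus strand (positions of all genes are from the GENCODE M21 annotation of GRCm38). Its level was 161, 149, 196, 396, 168 and 436 CPM in benign samples 1 to 6 and 77.1, 41.9, 44.7, 54.3, 73.4 and 36.4 CPM in tumors 1 to 6. The highest tumor lay below the lowest benign sample, and benign samples 4 and 6 stood above the other benign samples. The mean fell 4.59-fold, a log2 fold change of -2.20 (SE 0.32, adjusted p = 8.2e-05 by edgeR). Without benign samples 3, 4 and 6 it was -1.50 and still called (adjusted p = 0.00045).

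Gpat3, a GPAT of the endoplasmic reticulum at chr5:100845713-100899102 on the plus strand, had the largest fall of this step. Its level was 28.0, 58.6, 36.5, 80.9, 50.7 and 61.6 CPM in benign samples and 2.33, 1.79, 0.722, 1.48, 3.96 and 2.09 CPM in tumors. Tumor libraries held at most 31 counts of Gpat3 each, against at least 151 in benign libraries. The groups were far apart, with a log2 fold change of -4.67 (SE 0.37, adjusted p = 3.5e-07 by edgeR) and a ratio of benign to tumor means of 25.6.

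Gpat4, another GPAT of the endoplasmic reticulum at chr8:23171265-23208346 on the minus strand, differed little between the groups. It stood at 114, 139, 137, 227, 131 and 184 CPM in benign samples and 54.8, 117, 130, 180, 71.0 and 71.2 CPM in tumors. Tumors 1, 5 and 6 lay below every benign sample, and tumors 2, 3 and 4 lay within the benign range. The log2 fold change was -0.58 (SE 0.28, adjusted p = 0.096 by edgeR), just inside the threshold, and a two-sided exact permutation test of log2 CPM over all regroupings of the 12 samples gave p = 0.0563. The call was lost in 16 of 21 alternatives, including the removal of any single sample but benign samples 1 and 5 and tumor 4 (adjusted p up to 0.25) and DESeq2 (adjusted p = 0.108), and the log2 fold change was -0.26 without benign samples 3, 4 and 6 (adjusted p = 0.56).

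At the second step the fall was far larger for Agpat2 than for Agpat3. Agpat2, the acyltransferase whose loss causes generalized lipodystrophy in mice and people, lies at chr2:26593057-26604417 on the minus strand and overlaps Egfl7 on the other strand. Its level was 373, 290, 330, 1240, 388 and 553 CPM in benign samples and 19.8, 29.2, 31.5, 25.1, 36.1 and 32.4 CPM in tumors. Benign sample 4, which had the highest brown adipocyte markers, stood far above the rest, and the lowest benign sample was still well above the highest tumor. The log2 fold change was -4.19 (SE 0.38, adjusted p = 9.9e-07 by edgeR), with a ratio of means of 18.2, and it was -3.55 without benign samples 3, 4 and 6. Agpat3, which also makes phosphatidate and reacylates lysophospholipids, lies at chr10:78269178-78352489 on the minus strand. It stood at 155, 141, 164, 373, 139 and 244 CPM in benign samples and 108, 82.5, 84.7, 103, 88.1 and 101 CPM in tumors. Tumors were tightly grouped below the benign range, and the log2 fold change was -1.10 (SE 0.24, adjusted p = 0.0015 by edgeR). Without benign samples 3, 4 and 6 it was -0.57 and still called (adjusted p = 0.0029).

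The lipins split, with Lpin1 lower and Lpin2 not called. Lpin1, the main lipin of adipose tissue and muscle and the gene mutated in fatty liver dystrophy mice, lies at chr12:16535669-16610966 on the minus strand. Its level was 191, 174, 350, 462, 272 and 512 CPM in benign samples and 45.3, 61.2, 38.3, 52.9, 49.7 and 31.5 CPM in tumors. Benign samples 3, 4 and 6, which had the most skeletal muscle markers, were the highest, and all tumors lay below all benign samples. The log2 fold change was -2.81 (SE 0.29, adjusted p = 3.4e-06 by edgeR), and it was -2.15 without benign samples 3, 4 and 6. The part of muscle and brown fat in these values was not tested beyond leaving those samples out.

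Lpin2, a lipin known from liver and macrophages, lies at chr17:71182560-71249817 on the plus strand. It stood at 24.6, 21.5, 20.2, 23.7, 20.1 and 30.7 CPM in benign samples and 25.4, 35.6, 29.2, 23.8, 28.0 and 24.6 CPM in tumors. The groups overlapped, with 1 tumor above the highest benign sample. The log2 fold change was 0.24 (SE 0.14, adjusted p = 0.16 by edgeR). It was between 0.20 and 0.41 in every alternative run, and 9 of 21 alternatives put it past the threshold as higher in tumors, among them total-count scaling (0.35, adjusted p = 0.042) and leaving out benign samples 4 and 6 (0.41, adjusted p = 0.03).

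At the last step both DGATs fell, and Dgat2 had the largest fall of the 9 tested genes. Dgat1, a DGAT of the endoplasmic reticulum with broad expression, lies at chr15:76502015-76511953 on the minus strand, 102 bases from Hsf1. Its level was 116, 133, 91.9, 245, 91.2 and 163 CPM in benign samples and 25.2, 23.4, 24.7, 31.5, 52.8 and 26.7 CPM in tumors. Tumor 5 stood apart from the other tumors and still lay below every benign sample. The log2 fold change was -2.19 (SE 0.28, adjusted p = 2.6e-05 by edgeR), close to that of Gpam.

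Dgat2, a DGAT of an unrelated protein family that also acts at lipid droplets, lies at chr7:99153658-99182719 on the minus strand. It stood at 973, 1320, 1410, 1810, 1680 and 1580 CPM in benign samples and at 9.96, 7.98, 11.1, 5.80, 19.7 and 8.89 CPM in tumors. The lowest benign sample was thus far above the highest tumor, and the level varied less between benign samples (coefficient of variation 20.4%) than that of Agpat2 (67.9%). The ratio of means was 138, the log2 fold change was -7.11 (SE 0.33, adjusted p = 5.1e-09 by edgeR), and only 0.887% of all genes tested had a lower log2 fold change. The study named both DGATs, and Acsl1 described further on, as reduced in these same samples, so the tests of these 3 genes are not independent evidence. Tumor 5 had the highest level among tumors for Gpat3, Agpat2, Dgat1 and Dgat2. It also had the highest sums of brown adipocyte markers (81.6 CPM, of which Ppargc1a was 47.3) and skeletal muscle markers (157 CPM) among tumors. Its white adipocyte markers were not the highest (250 CPM, within the tumor range of 238 to 491). The part of all these markers in its levels was not tested.

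Mogat2, a monoacylglycerol acyltransferase known from fat absorption in the intestine and a relative of Dgat2 that lies beside it at chr7:99219084-99238619 on the minus strand, was scarce. It stood at 1.85, 7.52, 3.96, 2.85, 8.49 and 1.42 CPM in benign samples, from 8 to 68 counts a library. It had 0 counts in tumors 1, 2 and 6, which allows levels of up to 0.467, 0.413 and 0.329 CPM, and 0.241, 0.135 and 0.128 CPM in tumors 3, 4 and 5, at most 2 counts a library. It did not pass the filter on low counts, so it had no edgeR test in the main comparison. Set against the floor of 3 counts per library (0.426 CPM on average), its benign mean of 4.35 CPM was at least 10.2-fold higher than the tumor level. All tumors lay below all benign samples, and the two-sided exact permutation test of log2 CPM gave p = 0.00216, the smallest that 6 samples against 6 allow. An antisense transcript, Gm45012, overlaps Mogat2, and the strand setting used for counting is not given in the sources used here.

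**Figure D2:**
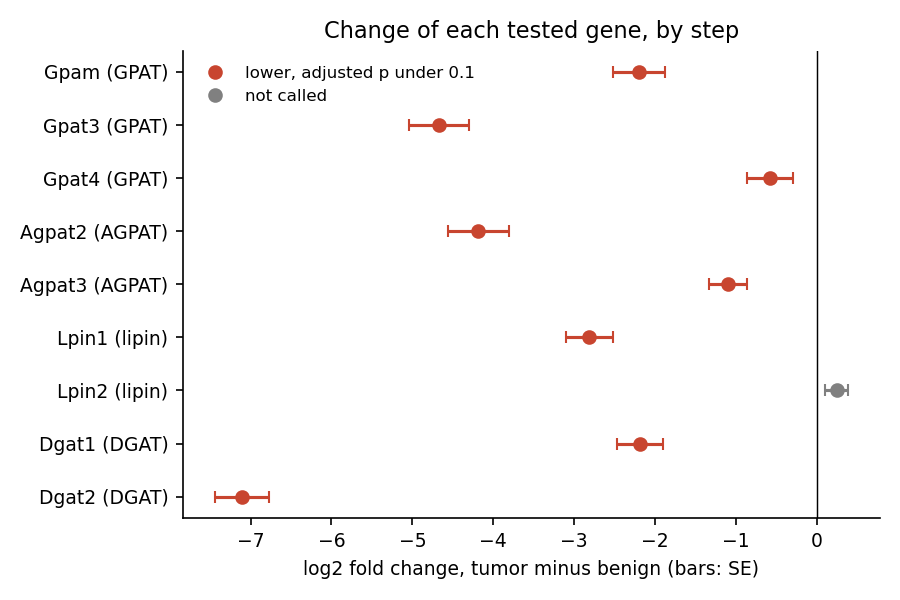
Log2 fold change (tumor minus benign) of the 9 tested genes, grouped by step, with bars for the standard error and red points for genes lower in tumors at an adjusted p-value under 0.1 by edgeR. Values run from -7.11 for Dgat2 to 0.24 for Lpin2, and within each step 1 gene fell far more than the others.

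Because enzymes of the same step fell by different amounts, their ratio within each sample was compared as well. Library scaling enters this measure only through the 2 counts added to each scaled count, which matters where counts are low. With 0.5 added instead, the difference between groups went from 2.45 to 2.60 for Gpam to Gpat3. For Gpat3 to Gpat4 it went from -3.89 to -4.05. For 5 of 6 ratios the tumors did not overlap the benign samples. The ratios draw on the same counts as the fold changes above, so their tests are not independent evidence. How often other pairs of genes part in this way was not computed. The log2 ratio of Dgat1 to Dgat2 rose from -3.45 ± 0.51 in benign tissue to 1.55 ± 0.43 in tumors, given as mean ± SD with n = 6 in each, and was below 0 in every benign sample and above 0 in every tumor. The ratio of Agpat2 to Agpat3 fell from 1.28 ± 0.28 to -1.72 ± 0.44, and was above 0 in every benign sample and below 0 in every tumor. These ratios are not corrected for gene length, so their sign alone does not show which enzyme had more transcripts. The ratio of Lpin1 to Lpin2 fell from 3.68 ± 0.58 to 0.72 ± 0.30, and no tumor exceeded 1.15.

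Among the GPATs, Gpat3 lost ground to both others. The log2 ratio of Gpam to Gpat3 rose from 2.18 ± 0.55 to 4.63 ± 0.58, and that of Gpat3 to Gpat4 fell from -1.60 ± 0.30 to -5.49 ± 1.22. The ratio of Gpam to Gpat4 fell from 0.59 ± 0.40 to -0.86 ± 0.92, with tumor 1 (0.49) inside the benign range and tumor 5 (0.05) just under its lower end (0.09). Two-sided exact permutation tests over all regroupings gave p = 0.00866 for Gpam to Gpat4 and p = 0.00216, the smallest possible, for each of the other 5 ratios (adjusted over the 6 ratios, 0.00866 and 0.0026). The Gpam to Gpat4 difference was -1.17 without benign samples 3, 4 and 6 and no longer passed (adjusted exact p = 0.0952).

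**Figure D3:**
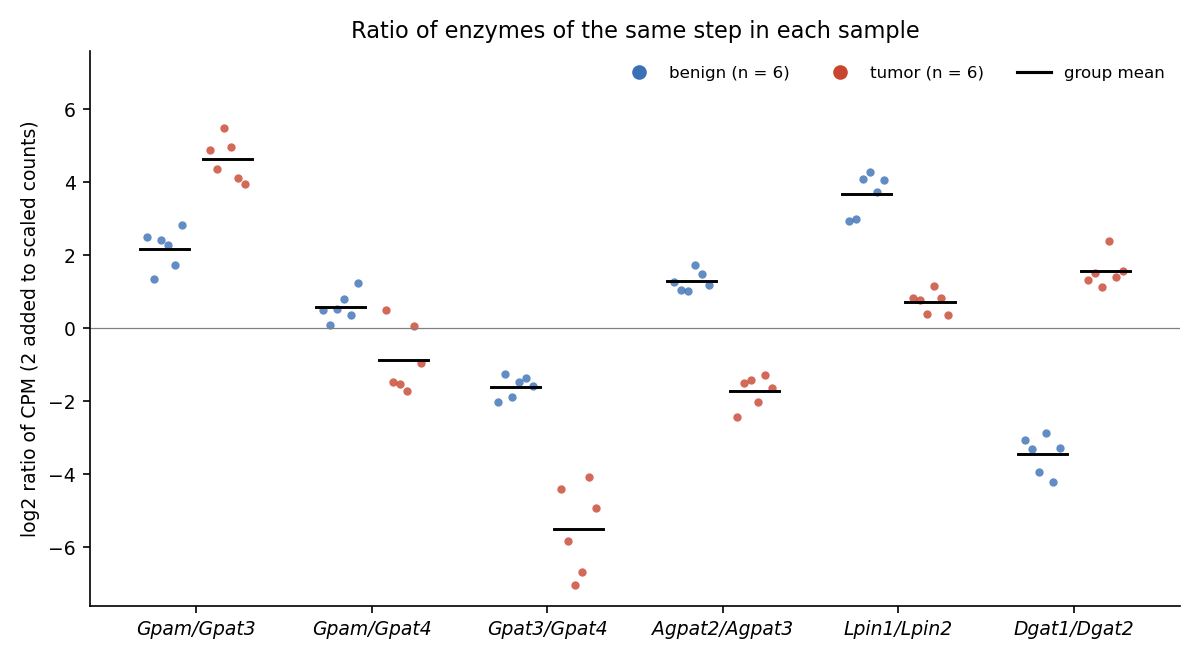
Log2 ratio of the CPM of 2 enzymes of the same step in each of 6 benign samples (blue) and 6 tumors (red), with a bar for each group mean. The ratio of Dgat1 to Dgat2 lies below 0 in every benign sample and above 0 in every tumor, the ratio of Agpat2 to Agpat3 does the reverse, and the groups overlap for Gpam to Gpat4. The ratios are not corrected for gene length, so their sign alone does not show which enzyme had more transcripts.

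To compare levels between genes, CPM was divided by the merged exon length of each gene in kilobases. In benign tissue Dgat2 stood highest at 474 ± 96.6 CPM per kilobase, followed by Agpat2 at 248 ± 169, and these stayed first and second when the median transcript length was used. Their ranges overlapped, since Agpat2 reached 581 CPM per kilobase in benign sample 4. In tumors Gpat4 (15.6 ± 7.09), Agpat2 (13.6 ± 2.72), Agpat3 (12.2 ± 1.39) and Dgat1 (10.1 ± 3.66 CPM per kilobase) overlapped in their ranges, and their order changed with the length used. Dgat2 was seventh in tumors by either length, at 3.43 ± 1.56 CPM per kilobase. Lpin2 stood at 1.92 ± 0.33 in benign tissue and 2.27 ± 0.36 in tumors on this scale.

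Levels in CPM per kilobase were also summed for the 4 steps with more than 1 of the genes listed at the start. The sum fell least for the GPATs and most for the DGATs by either length. Other enzymes of these steps were left out, among them Agpat1, Agpat4, Agpat5 and Lpin3 (log2 fold changes -0.88, -3.46, -0.13 and -0.087). Sums over all enzymes of a step were not computed, so the ratios below describe the listed genes only. GPATs summed to 75.9 ± 29.5 in benign tissue and 24.4 ± 6.4 in tumors, a ratio of 3.12. The ratio was 5.05 for the lipins, 10.6 for the AGPATs and 38.6 for the DGATs, whose sum went from 520 ± 107 to 13.5 ± 5.04. With median transcript lengths the ratios were 2.002 for the GPATs, 2.95 for the lipins, 4.94 for the AGPATs and 40.6 for the DGATs. Dgat2 made up 88.0% to 94.8% of the DGAT sum in benign samples and 15.5% to 30.8% in tumors, so most DGAT signal in tumors came from Dgat1. Gpat4 made up 24.9% to 34.8% of the GPAT sum in benign samples and 40.1% to 75.9% in tumors. By median transcript length its share was 57.5% to 70.6% in benign samples and 71.9% to 92.3% in tumors.

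The genes were also set against the adipocyte markers that fell with them, as the log2 ratio of each gene's CPM to the sum of the 12 white adipocyte markers in the same sample. For the 8 tested genes other than Dgat2, all 6 tumors lay above the highest benign ratio. The mean marker sum itself fell 98-fold, while the median log2 fold change over all genes tested was -0.06. Most genes would therefore rise against this sum, and the share of all genes with every tumor above was not computed. The rise in mean log2 ratio was 1.83 for Gpat3, 2.59 for Agpat2 and 3.87 for Lpin1, and 4.44 to 6.85 for Gpam, Gpat4, Agpat3, Lpin2 and Dgat1. The mean ratio of Dgat2 changed less than that of any of the other 8 genes, and its direction depended on the markers used. Most single tumors lay outside the benign range, on either side of it. Against all 12 markers its mean went from -4.44 in benign tissue (-4.81 to -4.05) to -5.03 in tumors (-5.85 to -3.67), with 5 tumors below and 1 above the benign range. Against the 11 markers without Pnpla2 it went from -4.36 to -3.69, with 1 tumor below and 4 above. Against the mean of the log2 levels of the 12 markers it differed by 0.50, with 2 tumors below and 3 above. On both of these scales, which were chosen after seeing the data, the other 8 genes again lay above the benign range in all 6 tumors. These ratios are a description, since both terms fell in tumors and the cells that held the remaining RNA were not identified.

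**Figure D4:**
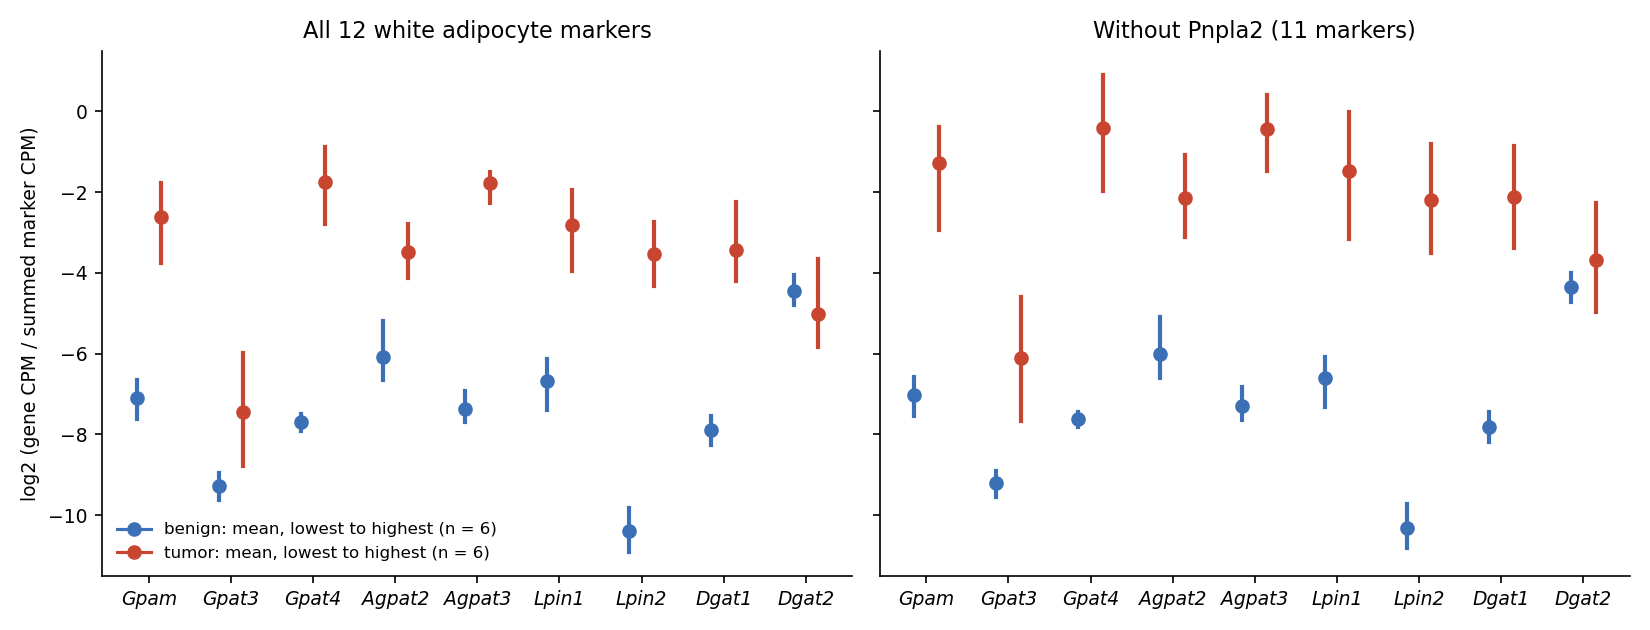
Log2 ratio of each gene's CPM to the summed CPM of 12 white adipocyte markers (left) and of the 11 markers without Pnpla2 (right), with points for the mean and bars from the lowest to the highest of 6 benign samples (blue) or 6 tumors (red). For 8 genes every tumor is above every benign sample in both panels, and for Dgat2 the mean of the tumors is 0.59 below that of benign tissue on the left and 0.67 above it on the right. Both sums fell strongly in tumors, so most genes would rise against them.

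The genes whose pattern over the 12 samples was most like that of Dgat2 were Glb1l2, Paqr9, Cdo1 (cysteine dioxygenase), Abcd2 (a peroxisomal fatty acid transporter) and Mrap (a melanocortin receptor accessory protein), with root mean square differences of centred log2 CPM from 0.31 to 0.41. Those most like Dgat1 were Mgll (monoacylglycerol lipase), Eif4ebp1 (a translation inhibitor), Ivd (isovaleryl-CoA dehydrogenase), Engase and Chpt1, from 0.26 to 0.30. The 2 lists of 5 shared 0 genes. That was fixed in advance, since the distance includes the size of the fall, which was -2.19 for Dgat1 and -7.11 for Dgat2. Mgll, the nearest to Dgat1, went from 1237 ± 417 to 281 ± 92.7 CPM (log2 fold change -2.14), and Glb1l2, the nearest to Dgat2, from 169 ± 41.0 to 1.17 ± 0.36 CPM (-7.14).

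The start of each gene was examined next, because enzymes of the same step moved unequally. RefSeq promoter windows on GRCm38.p6, from 250 bases before to 50 after a start site, were at hand for 6 of the 10 genes, 9 windows in all. The pairs that parted most within a step and had such windows were Agpat2 with Agpat3 and Lpin1 with Lpin2. The 250 bases before the start are given 5′ to 3′ on the strand of the gene, in lower case, with motif matches in capitals. They are chr2:26604418-26604667 (minus) for Agpat2, chr10:78351701-78351950 (minus) for Agpat3, chr12:16610967-16611216 (minus) for Lpin1 and chr17:71183282-71183531 (plus) for the first of 3 Lpin2 windows.
Agpat2: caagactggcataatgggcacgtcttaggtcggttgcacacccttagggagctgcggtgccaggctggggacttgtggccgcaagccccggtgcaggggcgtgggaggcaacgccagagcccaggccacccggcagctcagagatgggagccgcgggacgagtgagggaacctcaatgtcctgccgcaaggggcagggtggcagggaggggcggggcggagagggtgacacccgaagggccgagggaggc
Agpat3: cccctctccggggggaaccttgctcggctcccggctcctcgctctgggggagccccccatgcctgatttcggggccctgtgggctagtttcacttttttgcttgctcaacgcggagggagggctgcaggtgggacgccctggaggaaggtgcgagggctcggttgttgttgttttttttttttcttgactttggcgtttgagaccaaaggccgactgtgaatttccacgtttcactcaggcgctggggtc
Lpin1: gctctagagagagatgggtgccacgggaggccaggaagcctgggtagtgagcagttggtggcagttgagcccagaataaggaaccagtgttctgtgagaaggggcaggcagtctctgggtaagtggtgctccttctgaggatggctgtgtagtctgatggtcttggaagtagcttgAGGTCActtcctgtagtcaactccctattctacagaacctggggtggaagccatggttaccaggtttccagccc
Lpin2: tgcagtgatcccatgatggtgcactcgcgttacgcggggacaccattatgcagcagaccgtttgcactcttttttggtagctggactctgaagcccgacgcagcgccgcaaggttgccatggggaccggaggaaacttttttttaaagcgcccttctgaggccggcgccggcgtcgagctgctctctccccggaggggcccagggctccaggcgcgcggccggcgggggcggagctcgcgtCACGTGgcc

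Motifs were searched on both strands of each window. They were AGGTCA, the element bound by many nuclear receptors, a pair of AGGTCA in the same direction 1 base apart, the letters of a peroxisome proliferator response element that contain the single element, CACGTG, an E-box, and TCACNCCAC, letters of a sterol response element. AGGTCA was found once in the Lpin1 window, starting 74 bases before the start, and once in the second Gpam window, 196 bases before it. CACGTG was found once, 9 bases before the start in the first Lpin2 window. No GENCODE transcript starts at the start site of that Lpin2 window or of the Gpam window with AGGTCA. The Lpin1 start is a GENCODE transcript start. The other Lpin2 windows, which do begin GENCODE transcripts, held none of the motifs and are not shown. Of 32851 mouse promoter windows, 16.3% held AGGTCA, 7.15% CACGTG, 1.24% the sterol letters and 0.0396% the pair. The Agpat2, Agpat3 and Gpat3 windows held none of them. A match is a run of letters and not a measured binding site. GC content of the 250 bases was 69.2% for Agpat2, 59.6% for Agpat3, 54.8% for Lpin1 and 65.2% for the first Lpin2 window. It was 83.2% and 44.8% for the other Lpin2 windows.

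The other genes of the glycerolipid pathway moved in both directions. Of 51 other genes listed by role, 48 were in the table and 45 were tested, of which 19 were lower, 13 were higher and 13 were not called, with a median log2 fold change of -0.14. Shares over all genes tested were 34.8% lower and 28.2% higher, as above. Apart from Gk, Cds2, Chkb, Acsl3, Acsl5 and Lpin3, the genes named below were picked among those called with groups that do not overlap. Their p-values and lack of overlap thus follow from how they were picked.

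Genes that supply glycerol-3-phosphate fell the most, with 4 of 5 tested lower and a median log2 fold change of -5.37. Pck1, the enzyme of glyceroneogenesis, ranged from 259 to 1935 CPM in benign tissue (median 499) and from 0.675 to 8.45 CPM in tumors (median 2.45), a log2 fold change of -7.86 (SE 0.85, adjusted p = 5.5e-06 by edgeR). Aqp7, the glycerol channel of adipocytes, fell by 6.93 on the log2 scale, from 95.5 ± 37.9 to 0.75 ± 0.37 CPM. Gpd1, which makes glycerol-3-phosphate from dihydroxyacetone phosphate, fell by 5.37, and its level of 5600 CPM in benign sample 4 was above that of the other benign samples, which ranged from 985 to 2560 CPM. All tumors lay below all benign samples for these 3 genes, as for the white adipocyte markers. Glycerol kinase, Gk, was higher in tumors (1.49, adjusted p = 0.01 by edgeR), with overlapping groups.

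The long-chain acyl-CoA synthetases, which activate fatty acids for every acyl transfer above, moved in opposite directions. Acsl1, the main form of adipose tissue, ranged from 724 to 1760 CPM in benign tissue and from 52.6 to 84.0 CPM in tumors (log2 fold change -4.01, SE 0.25, adjusted p = 4.4e-08 by edgeR). Acsl4, which prefers arachidonate, ranged from 29.9 to 40.4 CPM in benign tissue and from 580 to 1535 CPM in tumors (4.74, SE 0.28, adjusted p = 2.6e-08 by edgeR). Neither pair of groups overlapped. Acsl3 and Acsl5 were not called.

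Among the other acyltransferases and phosphatases, changes went both ways. Agpat1, a broadly expressed AGPAT, fell by 0.88 on the log2 scale, from 112 ± 31.1 to 60.4 ± 5.06 CPM. Of the lipid phosphate phosphatases, Plpp1 fell by 2.37 and Plpp3 by 1.34, and Plpp2 rose by 2.14, from 51.0 ± 24.1 to 226 ± 17.3 CPM. Mogat1, the other monoacylglycerol acyltransferase measured, fell by 4.98, from 13.3 ± 7.25 to 0.40 ± 0.25 CPM. Adjusted p-values ranged from 8.3e-08 to 0.00056 by edgeR for these 5, and the groups did not overlap for any of them. Lpin3, the remaining lipin, was not called (15.8 ± 3.42 and 14.9 ± 2.66 CPM).

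**Figure D5:**
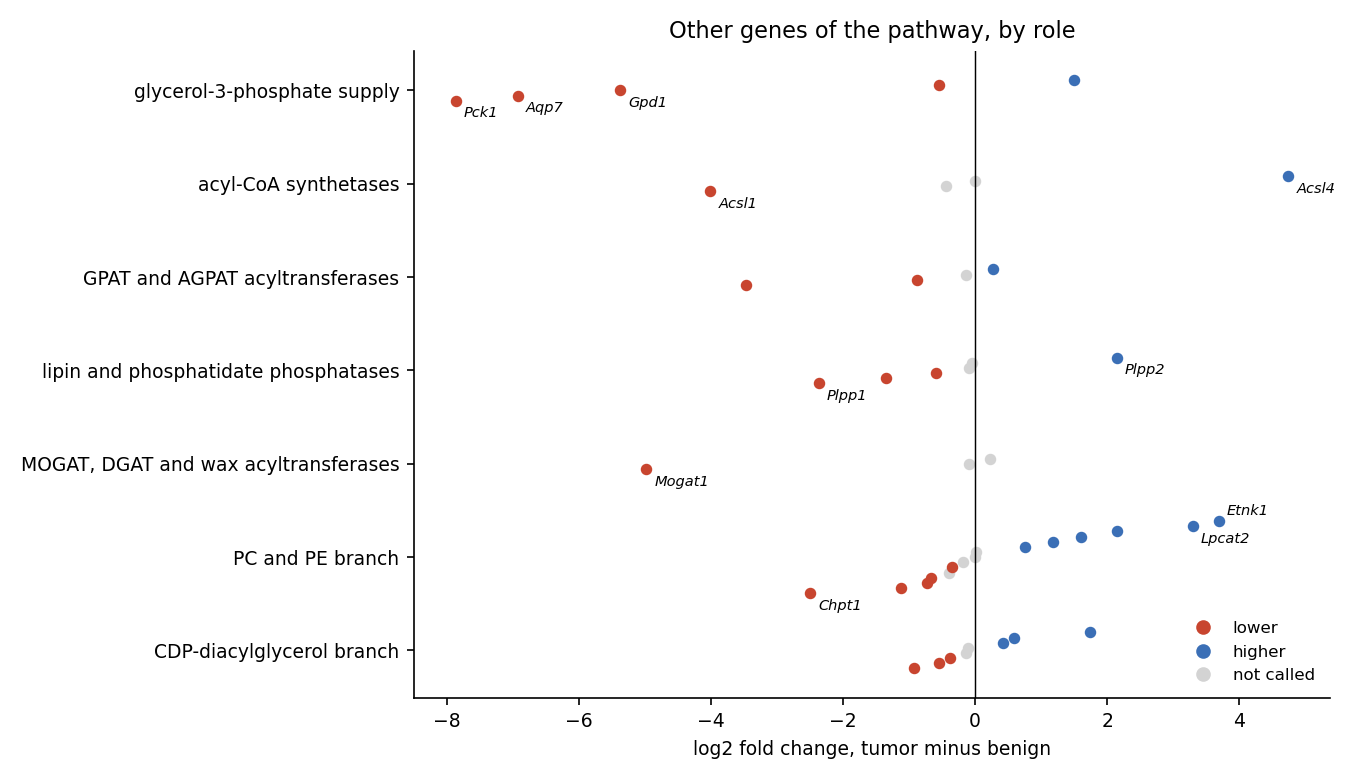
Log2 fold change (tumor minus benign) of the 45 other tested pathway genes by role, with red points lower and blue points higher at an adjusted p-value under 0.1 by edgeR, grey points not called, and PC and PE standing for phosphatidylcholine and phosphatidylethanolamine. Glycerol-3-phosphate supply reaches -7.86 at Pck1, whereas the PC and PE branch is spread on both sides of 0 and reaches 3.69 at Etnk1.

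Phospholipid branches that draw on the same diacylglycerol and phosphatidate were mixed. In the phosphatidylcholine and phosphatidylethanolamine branch, 6 of 15 genes were higher, 5 were lower and 4 were not called, with a median log2 fold change of 0.00. Of the kinases at its entry, Chkb was not called, and increases were found for Etnk1, an ethanolamine kinase, from 111 ± 24.5 to 1430 ± 367 CPM (3.69, SE 0.22, adjusted p = 2.7e-08 by edgeR) and Chka, choline kinase alpha, from 42.8 ± 3.48 to 96.9 ± 10.9 CPM (1.18, SE 0.10, adjusted p = 5.3e-07 by edgeR). Lpcat2, which reacylates lysophosphatidylcholine, rose by 3.30, with 2.13 to 13.0 CPM in benign tissue and 37.4 to 144 CPM in tumors. Chpt1, which joins phosphocholine to diacylglycerol, fell by 2.50, from 796 ± 337 to 141 ± 62.5 CPM. Pcyt1a, the rate-limiting enzyme of phosphatidylcholine synthesis, and Lpcat3 fell by 0.73 and 0.35.

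In the branch that uses phosphatidate through CDP-diacylglycerol, 3 of 8 tested genes were higher, 3 were lower and 2 were not called. Cds1, a CDP-diacylglycerol synthase, rose by 1.74, from 14.1 ± 3.67 to 47.0 ± 18.7 CPM, and Ptdss1, a phosphatidylserine synthase, rose by 0.42. Crls1, the cardiolipin synthase, fell by 0.92, from 64.7 ± 34.5 to 34.1 ± 4.58 CPM. The groups did not overlap for Cds1, Ptdss1 and Crls1, and their adjusted p-values by edgeR were 9.4e-05, 0.0014 and 0.012.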

How the data were processed

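RNA of 6 mammary tumors and 6 benign mammary tissues was analysed, grouped by the labels. Per the study's methods, tissue was lysed in TRIzol, purified with RNeasy, enriched for poly A RNA and sequenced as paired reads, and the labels name a directional library kit. Trim Galore, Salmon, DESeq2 and mm10 are named in the submitters' notes, with versions not given in the sources used here. The authors deposited an estimated count, a whole number, for each gene and sample, not scaled for library size, for 16411 genes with a sum of at least 5. Total counts were 5240853 to 8588567, and 0 columns lacked a sample. Floors cover counting error only.

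The members and gene lists were chosen with earlier results of these data known. In R 4.3.3, edgeR 4.0.16 was used to filter genes (filterByExpr with a minimum count of 10 and a minimum total of 15), to scale libraries (TMM) and to compare groups (quasi-likelihood, design by group), adjusted p under 0.1 after the methods. log2 CPM and ratios used 2 added counts. DESeq2 1.42.0 and the other settings of the closing section were alternatives. The scripts were tested on simulated data. The study calls the samples of a group biological replicates, and whether each came from a separate mouse is not stated. Every pair within a group differed by more than sampling noise (smallest chi-square per degree of freedom 11.3). Named pathway genes were, per role, up to 3 with the largest rise and 3 with the largest fall among called genes with groups that do not overlap and at least 10 CPM in the higher group. Gk, Cds2, Chkb, Acsl3, Acsl5 and Lpin3 were named after their values were seen. For Dgat2 and Dgat1, the 5 tested genes nearest in centred log2 CPM were named. Lengths and positions are from GENCODE M21, which may differ from the authors' annotation. Promoters are from RefSeq. Protein sequences were not used here. Ratios to adipocyte markers without Pnpla2, or to the mean of their log2 levels, were added after seeing the data.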

Additional observations from a re-analysis of the deposited data

Results flagged for a closer look

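Of 20 groups of 6 samples, one group for each of the 10 genes in benign tissue and in tumors, 2 had a sample far from the rest by Dixon's test at the 95% level, and chance gives about 1 in 20. Agpat2 stood at 1240 CPM in benign sample 4, where the gap to the next benign sample was 0.72 of the group's range. Dgat1 stood at 52.8 CPM in tumor 5, where the gap was 0.73 of the range.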

How the results depend on the processing

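The 21 alternatives were DESeq2, upper-quartile scaling, total counts, filters of at least 1 count in total or at least 10 in every sample, a threshold of 0.05, a replicate block, leaving out each sample, and leaving out benign samples 4 and 6 or 3, 4 and 6. The log2 fold changes of Gpam, Agpat2, Agpat3, Lpin1, Dgat1 and Dgat2 kept their sign and call in all 21, and Gpat3 in the 20 in which it could be tested. Members called lower numbered 6 to 9 (7 to 9 when a sample was left out). Gpat4 lost its call in 16 alternatives, with a log2 fold change of -0.74 to -0.38 when a sample was left out. Members called higher numbered 1, always Lpin2, with total counts, at least 1 count in total, at least 10 counts in every sample, and without benign samples 4 and 6 or 3, 4 and 6, and ranged from 0 to 1 when a sample was left out (1 without benign sample 6 or tumor 1, 4 or 6). The Gpam to Gpat4 difference was -1.17 without benign samples 3, 4 and 6, where its exact p adjusted over the 6 ratios was 0.0952, and the cause was not tested. The other 5 ratios passed in all 16 alternatives run for them. With the replicate block 8 members were lower (8 without it), Dgat2 was at -7.18 and other pathway genes called lower numbered 18 (19 without it). Same-numbered tumors and benign samples correlated from -0.12 to 0.10, no benign sample correlated best with the tumor of its own number, and the samples share only a number. Levels per kilobase depended on the length used, as in Gpat4 in tumors, at 15.6 by merged exons and 117 by median transcript length. Mogat2 at 0 to 2 counts in tumors is limited by depth. It could be tested in 11 alternatives and was lower in all 11 (adjusted p from 6.1e-09 with DESeq2 to 0.00014), and it counts among the members called lower there, also where Gpat4 lost its call. With 2 denominators chosen after seeing the data, the Dgat2 ratio to adipocyte markers turned from -0.59 to 0.67 (sum without Pnpla2) and 0.50 (mean of log2 levels), since Pnpla2 makes up 42.9% to 73.9% of the tumor sum.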
